A study of Rattus norvegicus with 10 samples.

Results

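The genes described here encode the extracellular matrix of cultured Sertoli cells: collagens, laminins, the enzymes that modify and cross-link collagen, proteoglycans and matrix glycoproteins. They were chosen by symbol, as every probe set with a single gene symbol that begins with Col and a digit, or with Lama, Lamb or Lamc and a digit, or that is one of 25 listed matrix genes. This gave 67 probe sets of 38 genes among the 8740 probe sets of the array that are no controls. Of these, 44 probe sets of 28 genes were bright enough to be tested, among 4439 tested in all. Total RNA came from Sertoli cells of 20-day-old rats kept in culture, and it was measured on 10 Affymetrix rat arrays. FSH (follicle-stimulating hormone) had been given for 2, 4, 8 or 24 h, and the control was an untreated culture at 0 h, with 2 arrays (n = 2) at each of the 5 times. The only untreated arrays are those at 0 h, so hours in culture and hours of FSH cannot be told apart. Separate cultures are not stated for the replicates, and the p-values then measure the spread between these arrays alone, which may be technical.

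The matrix of the seminiferous tubule lies under the Sertoli cells as a basement membrane of laminin and type IV collagen, and beyond it as a layer of fibrillar collagen and fibronectin. Sertoli cells and the peritubular myoid cells that surround the tubule build it together, the myoid cells being a known source of fibronectin and fibrillar collagen. FSH acts on Sertoli cells through its receptor, cAMP and protein kinase A. Collagen chains are hydroxylated on proline inside the cell, and once outside they are joined by lysyl oxidases, which oxidise lysine side chains so that neighbouring fibres bond.

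Values are array intensities brought to a shared 75th percentile ("scaled intensity"), and log2 changes are given with their limma standard error (SE). Values under a floor of 13.5 were set to the floor before log2 was taken, and scaled intensities are printed without the floor. A probe set was called where its limma p, adjusted by Benjamini-Hochberg over all 4439 probe sets, was under 0.05. Arrays of the same replicate number deviated together from their group means at every pair of times. This was weakest between 0 h and 2 h (r = 0.110) and strongest between 2 h and 4 h (r = 0.698). A fit that also holds the replicate number (the replicate block) therefore stands beside the results it changes. The 0 h arrays differed most in brightness: the median of the deposited intensities was 44.5 on control replicate 2 and 26.7 on control replicate 1, against 27.2 to 35.0 on the FSH arrays. Of 16 Sertoli cell markers 12 were on the array and 11 were tested, none was under the floor on all arrays, and Clu, the secreted clusterin, had 6791 to 13806.

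Lox, the lysyl oxidase that starts the cross-linking of collagen and elastin, was the only gene among the 28 tested matrix genes to be called under FSH, and it was higher. Its probe set S66184_s_at had scaled intensities of 13.8 at 0 h, 39.0 at 2 h, 77.1 at 4 h, 133 at 8 h and 62.6 at 24 h on the replicate 2 arrays, and 1.19, 30.2, 65.3, 187 and 42.2 at the same times on the replicate 1 arrays. All 8 FSH arrays lay above both controls, and the 8 h array was the highest of both replicate numbers. At 8 h it averaged 160.4 ± 38.3, against 7.48 ± 8.90 at 0 h (SD, n = 2 each), a log2 change of 3.54 ± 0.38 (limma adjusted p = 0.00372). The change was 3.27 within replicate 2 and 3.80 within replicate 1. At 4 h it had risen by 2.38 ± 0.38 on the log2 scale (limma adjusted p = 0.0313). Control replicate 1 was set to the floor and control replicate 2 lay just above it, so no fold is given and the size depends on the floor. The floor also removed most of the spread between the controls, which enters the SE and the p-values. With the 75th percentile divided by 4 and by 16 in place of 8 as the floor, the 8 h change was 2.55 and 4.04, and the 4 h change was 1.40 (limma adjusted p = 0.153, not called) and 2.88. At 2 h the log2 change was 1.33 ± 0.38 (limma adjusted p = 0.417) and at 24 h 1.92 ± 0.38 (limma adjusted p = 0.451), neither of which passed the test.

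Other Lox probe sets had their highest values at 8 h too. The probe set rc_AI234060_s_at had 32.6 at 0 h, 23.2 at 2 h, 50.6 at 4 h, 113 at 8 h and 39.3 at 24 h on the replicate 2 arrays, and 7.70, 28.0, 51.8, 164 and 46.6 at the same times on the replicate 1 arrays. It rose at 8 h by 2.70 ± 0.48 on the log2 scale (limma adjusted p = 0.0390), with control replicate 1 set to the floor. With the floors at the percentile divided by 4 and by 16 this was 2.20 and 3.11, the second not called (limma adjusted p = 0.0712), and both 8 h arrays lay above both controls. A further one, S77494_s_at, had 60.3 at 0 h, 55.7 at 2 h, 69.1 at 4 h, 145 at 8 h and 87.5 at 24 h on the replicate 2 arrays, and 14.5, 29.7, 93.8, 208 and 44.2 at the same times on the replicate 1 arrays. Its 8 h arrays also stood apart from the controls, and its change of 2.55 ± 0.66 passed only with the replicate block (limma adjusted p = 0.175, and 0.0481 with the block). The dimmest, rc_AA875582_at, stayed under the brightness filter, with 45.0 and 21.5 at 8 h against 21.4 and 2.49 at 0 h. In the array maker's naming the ending _s_at marks probe sets that can match several transcripts, and the 3 tested Lox probe sets carry it.

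Between 8 and 24 h the Lox values were lower again on every probe set. The log2 change from 8 to 24 h was -1.62 ± 0.38 for S66184_s_at, -1.67 ± 0.48 for rc_AI234060_s_at and -1.48 ± 0.66 for S77494_s_at, and on each of them both 24 h arrays lay under both 8 h arrays. None passed the test of 24 h against 8 h (limma adjusted p = 0.195, 0.354 and 0.757, and 0.0920, 0.160 and 0.343 with the block).

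**Figure D1:**
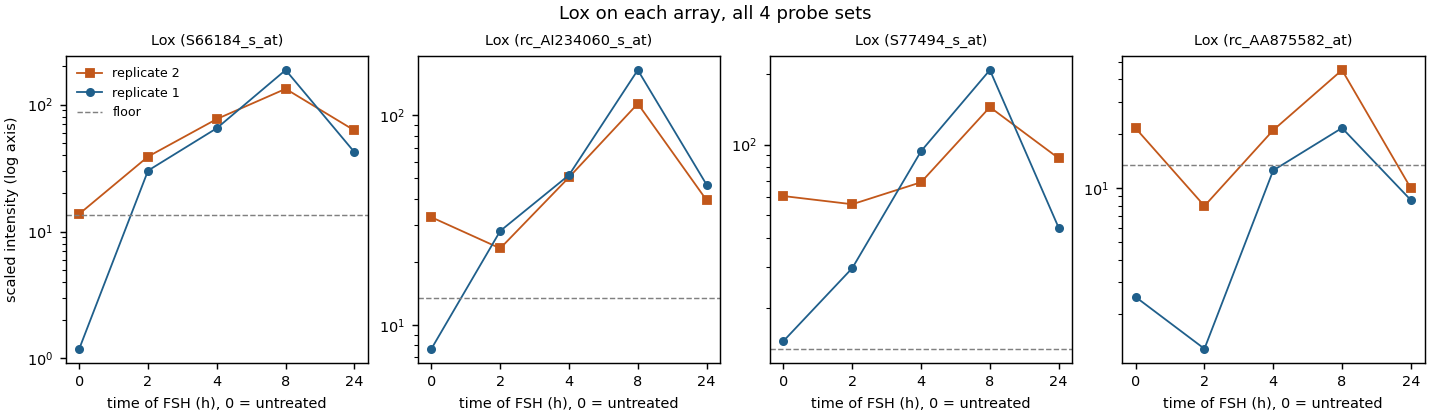
Scaled intensity (log axis) of the 4 Lox probe sets on each array against time of FSH in h, with 0 h untreated. Orange squares are replicate 2, blue circles replicate 1 and the dashed line is the floor of 13.5. In every panel and for both replicate numbers the 8 h array has the highest value.

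Of the 44 tested matrix probe sets, 1 was called higher at 4 h and 2 at 8 h, all of Lox, and 0 were called lower. Over the whole array 0.856% of probe sets were called at 4 h, all of them higher (0% lower), and 0.766% at 8 h, with 0.743% higher and 0.0225% lower. With the block 1 matrix probe set was called at 4 h and 3 at 8 h, again all of Lox and all higher. The array then had 2.95% called at 4 h (2.64% higher and 0.315% lower) and 2.68% at 8 h (2.3% higher and 0.383% lower). At 2 h 0 matrix probe sets were called (0.676% of the array, and 1.22% with the block, where also 0 matrix probe sets were called), and 3 had an unadjusted p under 0.05 (4.57% of the array). The F test over all times called 1 of them, S66184_s_at (limma adjusted p = 0.0148; 0.991% of the array was called), and 1 with the block (3.22% of the array).

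Control replicate 1 was the lower of the controls on the 3 tested Lox probe sets. Without that array the 8 h change of S66184_s_at was 3.52 (limma adjusted p = 0.0281), that of rc_AI234060_s_at was 2.07 (0.119, and 0.0285 with the block) and that of S77494_s_at was 1.52 (0.419, and 0.135 with the block). The 4 h change of S66184_s_at was then 2.36 (limma adjusted p = 0.0989, and 0.0129 with the block). Without 8 h replicate 1 the 8 h call of S66184_s_at was lost (3.29, limma adjusted p = 0.0948). With 1 array left out and no block, the 4 h count was 0 without either control, either 4 h or 8 h array or 24 h replicate 2. The 8 h count was 0 without 8 h replicate 1, 2 without control replicate 2 and 1 without any other array.

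Loxl1, the paralog of Lox best known for cross-linking elastin, had no change that passed the test. Its brighter probe set rc_AA800844_s_at had 113 at 0 h, 284 at 2 h, 154 at 4 h, 201 at 8 h and 249.6 at 24 h on the replicate 2 arrays, and 108, 99.1, 139, 294 and 401 at the same times on the replicate 1 arrays. Both arrays lay above both controls at 4, 8 and 24 h, and the 24 h array was the highest of replicate 1 while the 2 h array was the highest of replicate 2. The log2 changes were 1.14 ± 0.50 at 8 h and 1.52 ± 0.50 at 24 h (limma adjusted p = 0.519 and 0.996). The other Loxl1 probe set, rc_AA859805_at, had 48.3 and 167 at 24 h against 57.6 and 58.5 at 0 h, so of the 24 h arrays only replicate 1 was above the controls. P4ha1, the catalytic subunit of collagen prolyl 4-hydroxylase, had 113 at 0 h, 114 at 2 h, 147 at 4 h, 94.9 at 8 h and 134 at 24 h on the replicate 2 arrays, and 187, 200.3, 172, 142 and 228 at the same times on the replicate 1 arrays. Its FSH and control arrays overlapped at every time, and its lowest change was -0.33 ± 0.44 at 8 h (limma adjusted p = 0.927).

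The fibrillar collagens, which form the tensile fibres outside the basement membrane, had higher values at 24 h than at 0 h without passing the test. The 9 tested probe sets of Col1a1, Col1a2, Col3a1, Col5a1 and Col5a2 had a median log2 change of 0.22, 0.21, 0.28 and 0.89 at 2, 4, 8 and 24 h, beside -0.02, -0.03, -0.02 and 0.02 over all tested probe sets. With another scaling, another floor or 1 array left out (14 alternatives) these medians ranged from -0.36 to 0.60 at 2 h, -0.19 to 0.98 at 4 h, -0.15 to 0.80 at 8 h and 0.64 to 1.16 at 24 h. Without control replicate 1 they were below 0 at 2 h (-0.36), 4 h (-0.19) and 8 h (-0.15). They were also below 0 without 2 h replicate 2 at 2 h (-0.19) and without 4 h replicate 2 at 4 h (-0.042). At 24 h all 9 had a change above 0, that of Col5a1 being 0.00, and on 7 of the 9 both 24 h arrays lay above both controls, where 15.8% of the array did. None was called (0% of the array at 24 h, and 0.0901% with the block, where none of them was called either). At an unadjusted p under 0.05 there were 3 of 9 (4.6% of the array), and 7 of 9 with the block (9.26% of the array). The 9 are not independent, since 4 target Col1a1 and 2 target Col3a1.

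Col3a1, the chain of type III collagen, showed the largest change of the group on probe set X70369_s_at, with 94.6 at 0 h, 126 at 2 h, 125 at 4 h, 107 at 8 h and 196 at 24 h on the replicate 2 arrays, and 6.18, 31.3, 55.4, 44.0 and 128 at the same times on the replicate 1 arrays. Control replicate 1 was under the floor and both 24 h arrays were above both controls. The log2 change at 24 h was 2.15 ± 0.95, or 1.05 within replicate 2 and 3.25 within replicate 1 (limma adjusted p = 0.996, and 0.173 with the block). The other Col3a1 probe set, M21354_s_at, had 95.4 at 0 h, 92.8 at 2 h, 128 at 4 h, 108 at 8 h and 128 at 24 h on the replicate 2 arrays, and 76.2, 43.0, 66.3, 52.1 and 111 at the same times on the replicate 1 arrays. Its change was 0.48 ± 0.51 at 24 h and -0.43 ± 0.51 at 2 h, the lowest of the group (limma adjusted p = 0.996 and 0.999).

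Both chains of type I collagen, the main protein of connective tissue fibres, were measured. Col1a2 (rc_AA875531_s_at) had 183 at 0 h, 269 at 2 h, 217 at 4 h, 239 at 8 h and 297 at 24 h on the replicate 2 arrays, and 32.8, 77.0, 72.0, 114 and 348 at the same times on the replicate 1 arrays. Its 24 h change was 2.05 ± 0.89, or 0.70 within replicate 2 and 3.41 within replicate 1 (limma adjusted p = 0.996, and 0.220 with the block). The 24 h arrays of Col1a2 were close to each other, while the controls differed several-fold by replicate number. Col1a1 had 24 h changes of 1.06, 0.89, 0.83 and 0.84 on its 4 probe sets, with the 24 h arrays apart from the controls on the last 3. On rc_AI231472_s_at the values were already apart at 2 h, with 57.4 and 49.2 against 40.4 and 35.6 at 0 h, and the change was 1.06 ± 0.38 at 8 h (limma adjusted p = 0.385).

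Type V collagen, which co-assembles with type I and regulates fibre width, was measured on 2 chains. Col5a2 (rc_AI179399_at) had 51.7 at 0 h, 78.2 at 2 h, 67.6 at 4 h, 75.2 at 8 h and 85.6 at 24 h on the replicate 2 arrays, and 22.2, 31.7, 38.3, 45.1 and 93.8 at the same times on the replicate 1 arrays, with a 24 h change of 1.40 ± 0.58 (limma adjusted p = 0.996, and 0.305 with the block) and the 24 h arrays above both controls. Col5a1 (AJ005394_at) had 61.5 and 74.996 at 24 h against 73.4 and 62.4 at 0 h, and these overlapped. Whether the chains differ in their change was not tested.

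**Figure D2:**
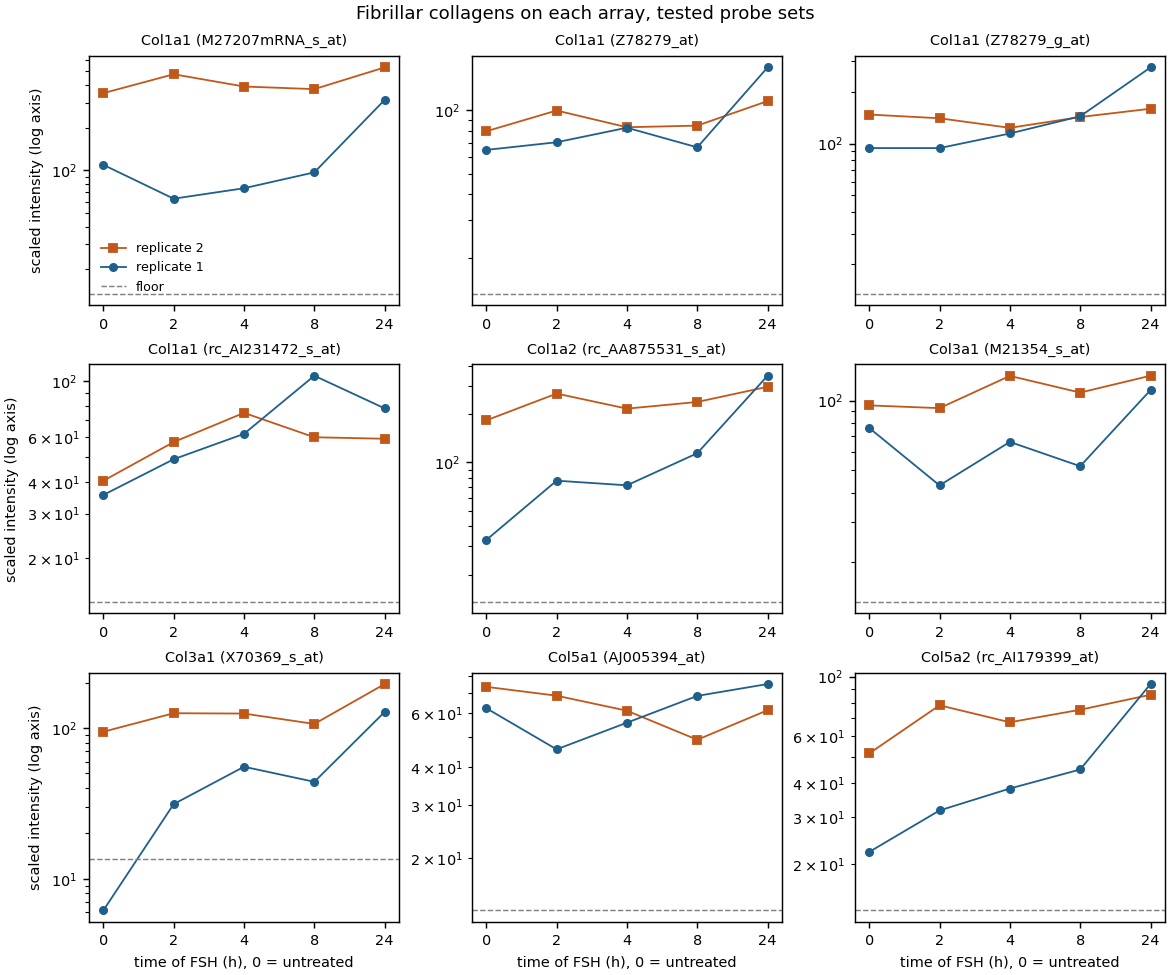
Scaled intensity (log axis) of the 9 tested fibrillar collagen probe sets on each array against time of FSH in h, with 0 h untreated. Orange squares are replicate 2, blue circles replicate 1 and the dashed line is the floor of 13.5. Replicate 2 lies above replicate 1 at all 5 times for Col1a1 M27207mRNA_s_at and both Col3a1 probe sets, and in every panel except Col1a1 rc_AI231472_s_at and Col5a1 the 24 h array is the highest of both replicate numbers.

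Markers of peritubular myoid cells also had changes above 0 at 24 h, with more overlap between the arrays than the fibrillar collagens had. Of 10 such markers 9 were on the array, and the 9 tested probe sets (Acta2, Tagln, Myl9, Actg2 and Tpm2) all had a 24 h change above 0, with a median of 0.79 and none called. The 9 target only 5 genes and are not independent. Tagln on M83107_at had 207 on 24 h replicate 1 and 8.50 to 68.1 on the other arrays. This probe set and that of Actg2 passed the brightness filter only through 24 h replicate 1, so their rises at 24 h partly follow from the filter. Both 24 h arrays lay above both controls on 2 of the 9 (15.8% of the array). None had an unadjusted p under 0.05 (4.6% of the array), and 1 had with the block (9.26% of the array). The brightest probe sets of the 9 genes on the array, also those under the filter, were summed. This sum was 872 to 1252 at 0 h, 985 to 1718 at 2 h, 1225 to 1238 at 4 h and 1122 to 1206 at 8 h. At 24 h it was 1369 on replicate 2 and 3763 on replicate 1. The highest sum of replicate 2 was the 1718 at 2 h. Acta2, the smooth muscle actin, had 323 and 1363 at 24 h against 282 and 122 at 0 h on its brightest probe set, so 24 h replicate 1 stood out. Myh11, Cnn1, Des and Cald1 were under the brightness filter. Without 24 h replicate 1 the myoid median was 0.14, with 5 of 9 above 0, while the fibrillar collagen median was 0.64, with 8 of 9 above 0. The part of myoid cells in the collagen values was not tested, and in these bulk cultures a change in the number of cells of a type and a change in RNA per cell cannot be told apart.

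Promoter sequences of 25 of the 38 matrix genes were found in the RefSeq table for the rat assembly GRCr8, each running from 250 bases before the annotated start to 50 after it. Those of Lox, Col1a1 and Col3a1 are not shown. Short motifs were searched on both strands: TGACG, the cAMP response element half-site, CCAAT, and TATAAA, the TATA box, none of which contains another. They were present in 21.2%, 37.5% and 14.2% of all 33469 promoters of this length, and in 4, 7 and 5 of the 25 matrix promoters. The sequences of Col1a2, Col5a2 and Loxl1 are printed as examples, chosen after their values were seen, of genes with a probe set whose 24 h arrays lay above both controls. In all, 16 of the 44 tested matrix probe sets showed this (15.8% of the array), among them ones of Sdc1, Sdc2, Fn1, Sparc, Col1a1, Col3a1 and Lox. The other Loxl1 probe set did not show it. Motif matches are in capitals.
Col1a2, GRCr8 chr4:33518307-33518606, plus strand: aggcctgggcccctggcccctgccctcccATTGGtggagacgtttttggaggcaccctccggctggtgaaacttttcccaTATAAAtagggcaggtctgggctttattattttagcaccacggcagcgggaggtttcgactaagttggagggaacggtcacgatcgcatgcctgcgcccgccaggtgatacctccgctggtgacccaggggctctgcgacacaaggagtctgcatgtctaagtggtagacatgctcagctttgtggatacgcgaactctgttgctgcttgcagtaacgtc
Col5a2, GRCr8 chr9:55090102-55090401, minus strand: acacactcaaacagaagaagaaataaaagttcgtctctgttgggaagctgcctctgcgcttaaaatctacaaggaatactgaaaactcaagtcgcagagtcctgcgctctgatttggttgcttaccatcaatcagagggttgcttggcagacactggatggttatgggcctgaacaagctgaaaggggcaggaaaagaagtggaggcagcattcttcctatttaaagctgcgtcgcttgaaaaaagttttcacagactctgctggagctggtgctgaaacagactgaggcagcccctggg
Loxl1, GRCr8 chr8:67612175-67612474, minus strand: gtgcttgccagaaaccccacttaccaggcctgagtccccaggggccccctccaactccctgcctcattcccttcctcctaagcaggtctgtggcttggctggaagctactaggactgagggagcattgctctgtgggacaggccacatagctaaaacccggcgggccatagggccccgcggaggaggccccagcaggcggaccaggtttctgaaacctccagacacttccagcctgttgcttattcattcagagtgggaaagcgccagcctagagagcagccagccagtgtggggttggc
Only the Col1a2 window holds any of these motifs, a CCAAT read on the opposite strand at bases 30 to 34 and a TATAAA at bases 81 to 86, counted from the 5′ end of the window. The last base of the CCAAT lies 217 bases before the annotated start and that of the TATAAA 165 bases before it. Whether this TATAAA serves as a TATA box was not tested. A match is a description of the letters, and the arrays measure no binding. The 4 genes with a TGACG in the window are Ccn1, Col4a5, Lama3 and Lama5.

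Among the other collagens, Col8a1 had lower values on most FSH arrays than on the controls. It encodes a short-chain collagen that forms networks in vessel walls and in Descemet's membrane of the eye. Its probe set S63458_at had 45.8 at 0 h, 23.8 at 2 h, 14.97 at 4 h, 16.2 at 8 h and 15.7 at 24 h on the replicate 2 arrays, and 56.6, 19.8, 11.7, 46.2 and 13.0 at the same times on the replicate 1 arrays. All FSH arrays except 8 h replicate 1 lay under both controls, and 8 h replicate 1 lay between the controls. Its mean did not reach the brightness filter. When every probe set was tested, its log2 changes were -1.23, -1.84, -0.89 and -1.81 at 2, 4, 8 and 24 h (SE 0.47), and none was called (limma adjusted p = 0.943, 0.335, 0.718 and 0.602).

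The 2 tested collagens of this class did not pass the test at any time. Col26a1 (rc_AA874897_at), a collagen described from mouse testis and ovary, had 66.7 at 0 h, 50.4 at 2 h, 67.0 at 4 h, 62.6 at 8 h and 72.2 at 24 h on the replicate 2 arrays, and 55.0, 42.4, 40.2, 36.2 and 37.7 at the same times on the replicate 1 arrays. Its lowest change was -0.39 ± 0.47 at 2 h, the one time at which both FSH arrays lay under both controls (limma adjusted p = 0.999). Col10a1 (S79214cds_s_at), known from hypertrophic cartilage, had 98.1 at 0 h, 44.6 at 2 h, 49.97 at 4 h, 34.7 at 8 h and 36.2 at 24 h on the replicate 2 arrays, and 36.4, 64.2, 75.2, 64.9 and 65.3 at the same times on the replicate 1 arrays. The replicates of Col10a1 went opposite ways, with -0.97 within replicate 2 and 1.05 within replicate 1 at 4 h, and its other probe set was under the floor on all 10 arrays. Col15a1 had 19.5 to 38.5 on replicate 2 arrays and 16.2 to 28.0 on replicate 1 arrays, under the filter, and Col12a1 and Col9a1 were under the floor on 5 and 9 of the 10 arrays. Col2a1 and Col11a1, the fibrillar collagens of cartilage, were under the floor on 9 or 10 arrays on each of their 2 probe sets.

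Dcn and Bgn encode decorin and biglycan, small leucine-rich proteoglycans that bind collagen fibrils. Dcn on probe set X59859_i_at had 33.1 at 0 h, 259 at 2 h, 112 at 4 h, 128 at 8 h and 199.7 at 24 h on the replicate 2 arrays, and 76.1, 115, 103, 65.4 and 71.3 at the same times on the replicate 1 arrays. At 2 h and 4 h both arrays were above both controls, and the 2 h change of 1.78 ± 0.63 was the largest of the secreted proteoglycans (limma adjusted p = 0.759, and 0.325 with the block). It was 2.97 within replicate 2 and 0.60 within replicate 1. The other tested Dcn probe sets, Z12298cds_s_at and rc_AI639233_s_at, had 2 h changes of 0.63 ± 0.86 and 1.48 ± 1.24, with overlapping groups, and X59859_r_at was under the filter. Bgn (rc_AA859830_s_at) had 93.0 at 0 h, 50.9 at 2 h, 73.4 at 4 h, 108 at 8 h and 80.4 at 24 h on the replicate 2 arrays, and 109, 111, 94.2, 234 and 105 at the same times on the replicate 1 arrays, with -0.42 ± 0.48 at 2 h and 0.66 ± 0.48 at 8 h (limma adjusted p = 0.999 and 0.782). Its other probe set, U17834_at, had changes of -0.10, 0.03, 0.45 and 0.49 at 2, 4, 8 and 24 h. Fmod, fibromodulin, had changes of -0.11, 0.24, -0.39 and -0.20 at 2, 4, 8 and 24 h on its tested probe set, and the dim one, X82152_at, had 16.02 and 26.4 at 24 h against 9.15 and 7.59 at 0 h, both controls being under the floor.

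The syndecans and glypicans carry heparan sulfate at the cell surface. Sdc1, syndecan-1, had 38.9 at 0 h, 60.4 at 2 h, 47.8 at 4 h, 74.4 at 8 h and 112 at 24 h on the replicate 2 arrays, and 32.7, 81.7, 107, 74.3 and 79.5 at the same times on the replicate 1 arrays on probe set S61865_s_at. Every FSH array lay above both controls. The log2 changes were 0.98, 1.00, 1.06 and 1.40 at 2, 4, 8 and 24 h, none of which passed the test (limma adjusted p = 0.962 at 24 h, and 0.308 with the block). The second Sdc1 probe set, X60651mRNA_s_at, had -0.24, 0.26, 0.05 and 0.12 at 2, 4, 8 and 24 h, so the 2 probe sets disagree. Sdc2 (M81687_at) had 1.01 ± 0.49 at 8 h and 0.90 ± 0.49 at 24 h, with both arrays above both controls at these times (limma adjusted p = 0.590 and 0.996).

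Sdc4, syndecan-4, had 1269.6 at 0 h, 1002 at 2 h, 1007 at 4 h, 644 at 8 h and 852 at 24 h on the replicate 2 arrays, and 2642, 4223, 3553, 2174 and 2644 at the same times on the replicate 1 arrays on probe set S61868_at. Its lowest change was -0.63 ± 0.93 at 8 h, or -0.98 within replicate 2 and -0.28 within replicate 1 (limma adjusted p = 0.937). The FSH and control arrays of Sdc4 overlapped at every time, and every replicate 2 array lay under every replicate 1 array. The dimmest Sdc4 probe set, rc_AA800059_at, was under the filter. Gpc1, glypican-1, had changes of -0.32, 0.36, 0.12 and 0.23 at 2, 4, 8 and 24 h.

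**Figure D3:**
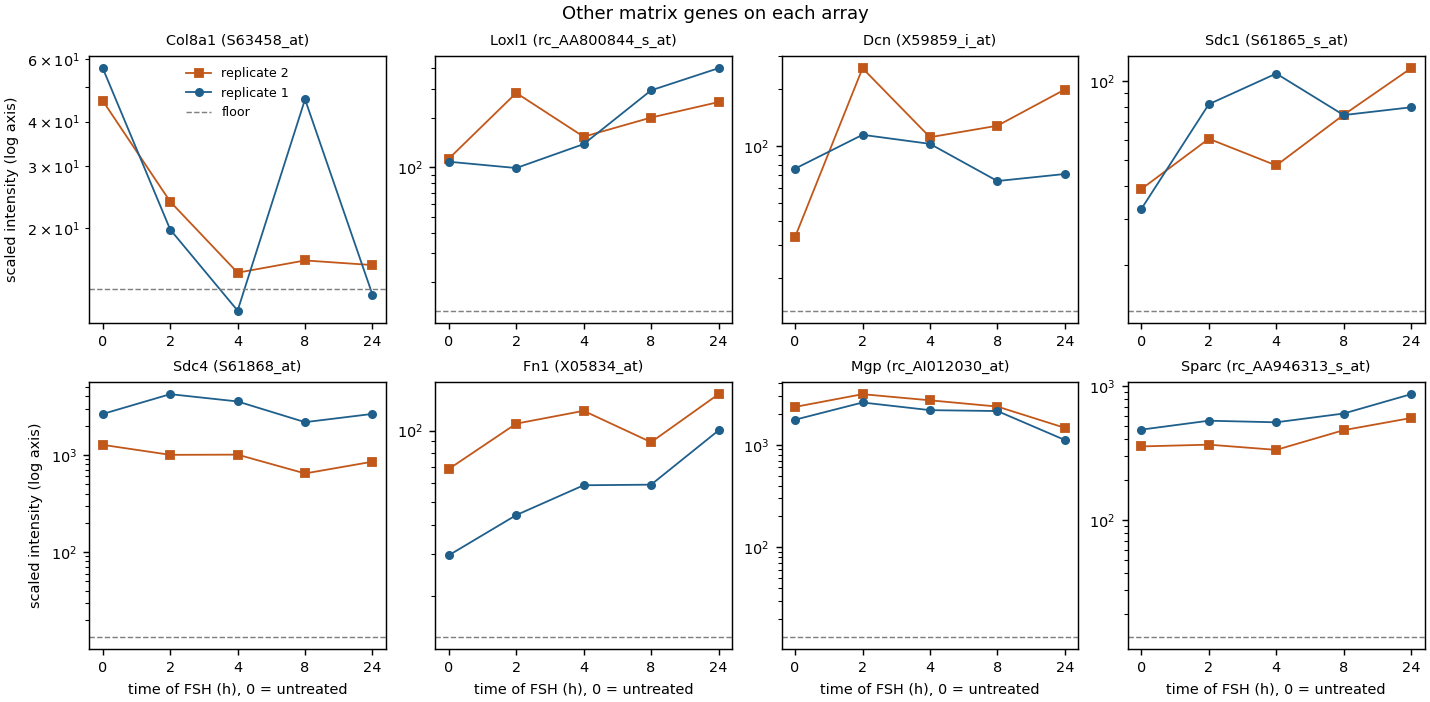
Scaled intensity (log axis) of 8 probe sets of other matrix genes on each array against time of FSH in h, with 0 h untreated. Orange squares are replicate 2, blue circles replicate 1 and the dashed line is the floor of 13.5. Every FSH array of Sdc1 S61865_s_at lies above both controls, while the replicate numbers of Sdc4 stay apart at every time.

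The basement membrane genes, whose products Sertoli cells lay down against the tubule wall, had a median change of -0.13, 0.03, -0.11 and 0.19 at 2, 4, 8 and 24 h over 5 tested probe sets. None of the 5 was called (0.676%, 0.856%, 0.766% and 0% of the array at these times). Over 14 alternatives the median ranged from -0.50 to -0.13 at 2 h, -0.20 to 0.066 at 4 h, -0.40 to 0.11 at 8 h and -0.047 to 0.30 at 24 h. Lama1, the laminin alpha-1 chain, had 44.6 at 0 h, 36.0 at 2 h, 32.4 at 4 h, 30.3 at 8 h and 41.1 at 24 h on the replicate 2 arrays, and 45.3, 18.2, 21.1, 24.9 and 99.2 at the same times on the replicate 1 arrays. Both arrays lay under both controls at 2, 4 and 8 h, with a change of -0.81 ± 0.56 at 2 h (limma adjusted p = 0.999), and 24 h replicate 1 was the highest array. Col4a5, a type IV collagen chain, had 94.9 at 0 h, 53.9 at 2 h, 57.9 at 4 h, 81.3 at 8 h and 50.6 at 24 h on the replicate 2 arrays, and 28.7, 66.7, 56.3, 70.7 and 45.0 at the same times on the replicate 1 arrays. Its largest change was 0.54 ± 0.51 at 8 h (limma adjusted p = 0.865), with -0.22 within replicate 2 and 1.30 within replicate 1. Lamb2 had -0.44, -0.40, -0.27 and -0.42 at 2, 4, 8 and 24 h on rc_AA900848_at and -0.11, 0.19, 0.00 and 0.24 at 2, 4, 8 and 24 h on rc_AI104225_at. Lamc1 had -0.13, 0.03, -0.11 and 0.19 at 2, 4, 8 and 24 h. Col4a3 had 12.9 and 16.7 at 24 h against 41.5 and 25.8 at 0 h and was under the filter. Lama2, Lama3 and Lama5 were under the floor on 9, 10 and 8 of the 10 arrays.

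Fn1 encodes fibronectin, the glycoprotein that links collagen to integrins. Its one tested probe set, X05834_at, had 68.8 at 0 h, 107 at 2 h, 121 at 4 h, 89.3 at 8 h and 142 at 24 h on the replicate 2 arrays, and 29.7, 43.9, 58.7, 59.0 and 100.1 at the same times on the replicate 1 arrays. Both 24 h arrays lay above both controls, and the change of 1.40 ± 0.59, or 1.05 within replicate 2 and 1.75 within replicate 1, did not pass the test (limma adjusted p = 0.996, and 0.187 with the block). A dim Fn1 probe set went the other way. On X05831cds_at the FSH arrays had 4.32 and 5.85 at 2 h, 4.18 and 12.2 at 4 h, 15.03 and 12.7 at 8 h and 9.30 and 2.86 at 24 h, against 27.7 and 25.7 at 0 h. It was under the brightness filter. When every probe set was tested it was called lower at each time, at least 1.98-fold at 2, 4 and 24 h, where both arrays were under the floor, with a log2 change of -0.91 at 8 h (limma adjusted p = 0.00483, 0.00362, 0.00937 and 0.00967). Arrays set to the floor have no spread, which enters that SE of 0.06. The 3 other Fn1 probe sets were also under the filter.

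Mgp, matrix Gla protein, an inhibitor of calcification, had 2337 at 0 h, 3109.7 at 2 h, 2709 at 4 h, 2355 at 8 h and 1461 at 24 h on the replicate 2 arrays, and 1753, 2579.9, 2173, 2129.7 and 1113 at the same times on the replicate 1 arrays. Both 24 h arrays lay under both controls and both 2 h arrays above them, with -0.67 ± 0.32 at 24 h and 0.48 ± 0.32 at 2 h (limma adjusted p = 0.996 and 0.999). From 8 to 24 h the change was -0.81 ± 0.32 (limma adjusted p = 0.649, and 0.209 with the block). Sparc, the collagen-binding protein osteonectin, had 24 h changes of 0.79, 0.64, 0.22 and 0.04 on its 4 probe sets. On rc_AA946313_s_at the 24 h arrays had 578 and 871 against 354 and 473 at 0 h, above both controls, and the change was not called (limma adjusted p = 0.996).

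Ccn1, a matricellular protein that binds integrins, had 45.2 at 0 h, 65.5 at 2 h, 42.9 at 4 h, 39.3 at 8 h and 26.4 at 24 h on the replicate 2 arrays, and 38.4, 57.2, 6.57, 29.7 and 35.7 at the same times on the replicate 1 arrays. At 2 h both arrays lay above both controls (0.56 ± 0.56), and at 4 h replicate 1 was under the floor, with a change of -0.79 ± 0.56 (limma adjusted p = 0.971). Eln, elastin, had 86.0 and 169 at 24 h against 88.2 and 52.6 at 0 h, a change of 0.82 ± 0.54, or -0.04 within replicate 2 and 1.68 within replicate 1. Spp1, osteopontin, had changes of -0.01, 0.12, 0.31 and -0.41 at 2, 4, 8 and 24 h, and Tnc, tenascin-C, 0.05, 0.01, -0.55 and -0.55 at 2, 4, 8 and 24 h. None of the 10 tested probe sets of these glycoproteins was called at any time (0.676%, 0.856%, 0.766% and 0% of the array at 2, 4, 8 and 24 h). The other 2 Tnc probe sets were under the floor on 9 and 10 arrays.

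**Figure D4:**
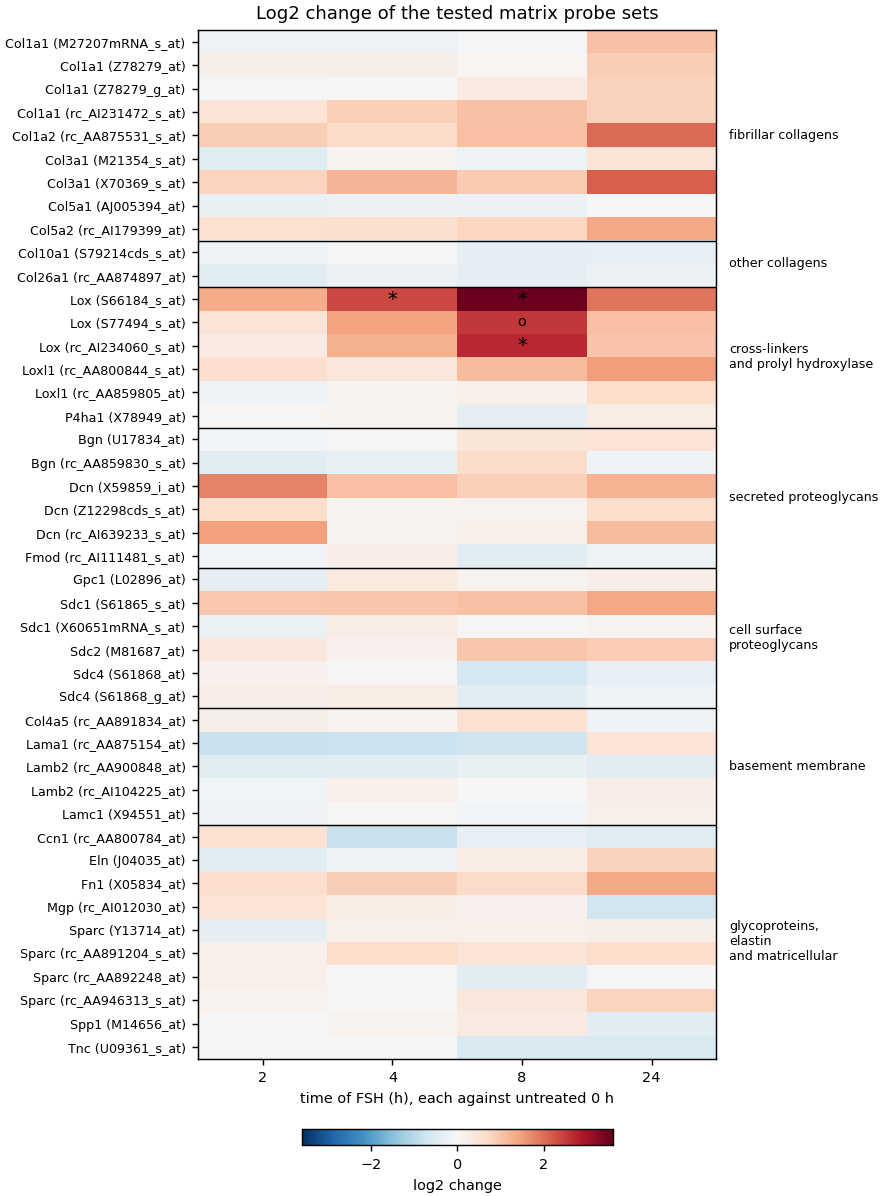
Log2 change of the 44 tested matrix probe sets at 2, 4, 8 and 24 h of FSH (columns), each against untreated 0 h, by class; red is higher and blue lower under FSH. A star marks a limma adjusted p under 0.05 and a circle one that passed only with the replicate block. The marked cells are all of Lox, at 4 and 8 h, and the fibrillar collagens are red at 24 h with none marked.

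Over all 44 tested matrix probe sets the median change at 24 h was 0.50, with 32 above 0, beside 0.02 over the array, where 51.3% were above 0. Without 24 h replicate 1 it was 0.23, with 26 above 0, and over 14 alternatives it ranged from 0.23 to 0.60. At 24 h 16 had both arrays above both controls (15.8% of the array) and 3 had both under them (13.3% of the array). None was called, 7 had an unadjusted p under 0.05 (4.6% of the array), and 14 with the block (9.26% of the array). Between 24 and 8 h none was called (0.225% of the array, and 1.15% with the block), and 4 had an unadjusted p under 0.05 (6.49% of the array).

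Matrix genes also differed between the replicate numbers, which each time holds once. With the time held, 12 of the 44 were called between replicate 2 and replicate 1, 7 higher and 5 lower in replicate 2, and over the array 15.2% were called, 6.53% higher and 8.65% lower. The higher ones were collagens, decorin and fibronectin. Col1a1 on M27207mRNA_s_at had 350.2 to 532 on replicate 2 arrays and 63.0 to 314 on replicate 1 arrays, a log2 difference of 1.94 ± 0.28 (limma adjusted p = 0.00247), with replicate 2 higher at 5 of 5 times. Dcn on rc_AI639233_s_at had 44.3 to 229.9 on replicate 2 arrays and 13.7 to 43.9 on replicate 1 arrays, a difference of 2.10 ± 0.36 (0.00531), and on Z12298cds_s_at the difference was 1.54 ± 0.19 (0.00153). Col3a1 differed by 1.58 ± 0.30 and 0.73 ± 0.21 on its 2 probe sets, Col1a2 by 1.34 ± 0.33 and Fn1 by 0.93 ± 0.20. The other 3 Col1a1 probe sets differed by -0.10 to 0.12 and were not called, so the probe sets of Col1a1 disagree. Dcn on X59859_i_at was not called either.

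The lower ones were Sdc4, Bgn, P4ha1 and Sparc, though the other tested probe sets of Bgn and Sparc were not called. Sdc4 on S61868_at had 644 to 1269.6 on replicate 2 arrays and 2174 to 4223 on replicate 1 arrays, without overlap, and differed by -1.67 ± 0.19 (limma adjusted p = 0.000938). On S61868_g_at the Sdc4 difference was -1.72 ± 0.18. Bgn on U17834_at differed by -0.90 ± 0.18, P4ha1 by -0.62 ± 0.17 and Sparc on rc_AA946313_s_at by -0.54 ± 0.16 (limma adjusted p = 0.0103, 0.0391 and 0.0461). Lox did not differ beyond the threshold, with 0.14 ± 0.24, 0.04 ± 0.30 and 0.60 ± 0.36 on its 3 tested probe sets.

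Some other measures moved with the replicate number. Averaged over the 5 times, the 7 tested probe sets of germ cell markers were all higher in replicate 2 (median log2 difference 1.99). Of these 4 were called (6.53% of the array was called higher). At single times some went the other way, as Acr had 67.0 on control replicate 1 and 29.6 on control replicate 2. Ddx4, with 11.9 to 31.7 on replicate 1 arrays, and Prm2, with 17.0 to 41.1, passed the brightness filter only through replicate 2. That all 7 were higher, and their median, which is the value of Ddx4, thus partly follow from the filter. The brightest probe sets of the 12 germ cell markers on the array summed to 2307 to 2801 on replicate 2 arrays and 276 to 968 on replicate 1 arrays. Of these markers 3 were under the floor on all arrays. The 16 tested probe sets of Sertoli markers had a median difference of -0.56, and 6 were called, all lower (8.65% of the array was called lower). The 9 tested probe sets of peritubular myoid markers had a median difference of -0.26, with 3 above 0 and none called (15.2% of the array). The fibrillar collagens had a median difference of 0.73, with 8 of 9 above 0 and 4 called higher (6.53% of the array). Pdgfra, a fibroblast marker, had 213 to 369 on replicate 2 arrays and 76.3 to 143 on replicate 1 arrays on its brightest probe set. The log2 difference there was 1.43 and was called (limma adjusted p = 0.00126). Thy1 and Lum were under the filter. On Pdgfra probe set Z14118cds_g_at the log2 difference was 0.67 and was not called (limma adjusted p = 0.206). No endothelial marker reached the filter. The 3′/5′ ratio of beta-actin, a sign of RNA quality, was 1.48 to 1.76 on replicate 2 arrays and 0.928 to 1.17 on replicate 1 arrays. The part of each of these in the matrix differences was not tested.

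**Figure D5:**
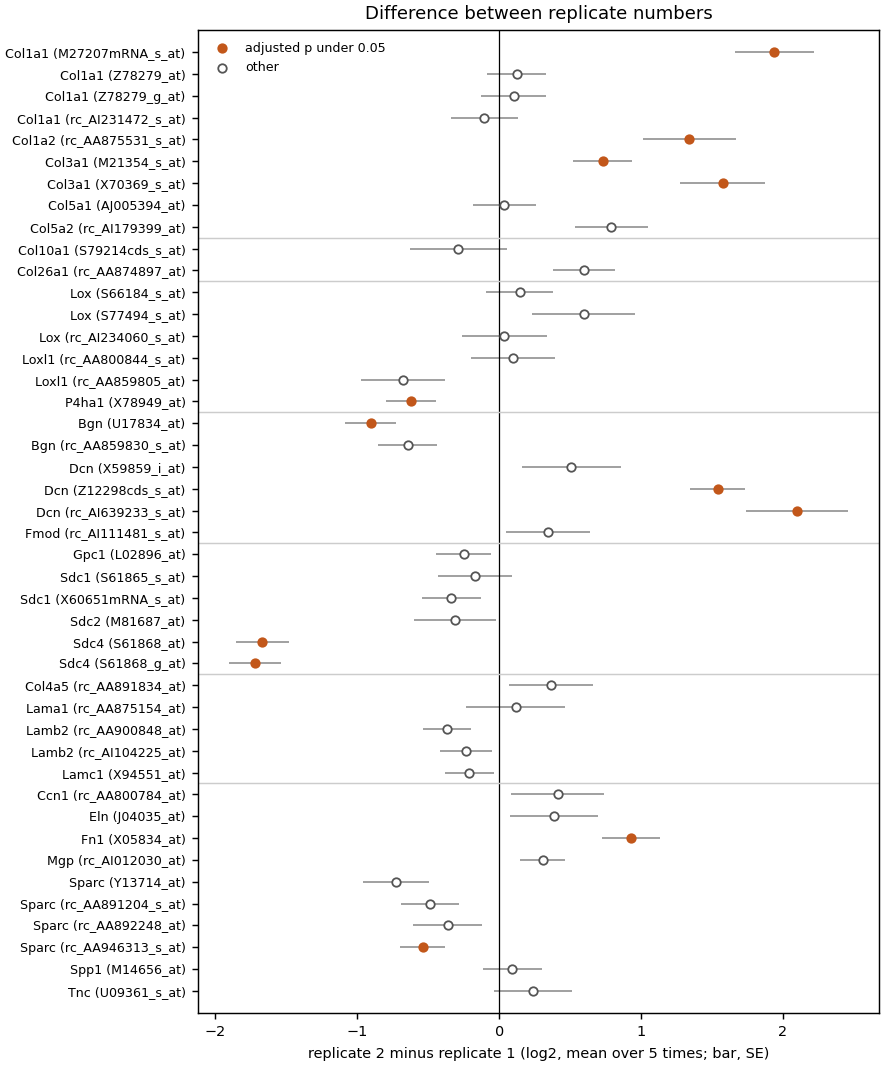
Log2 difference between replicate 2 and replicate 1, averaged over the 5 times, of the 44 tested matrix probe sets (points) with its SE (bars). Filled points have a limma adjusted p under 0.05: 7 lie right of 0, of Col1a1, Col1a2, Col3a1, Dcn and Fn1, and 5 left of it, of P4ha1, Bgn, Sdc4 and Sparc.

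Of 54 other genes of matrix assembly and attachment, 31 were on the array and 12 had tested probe sets, 18 in number. The tested genes were the lysyl hydroxylases Plod1, Plod2 and Plod3, P4hb, Serpinh1 and Pcolce of collagen processing, Agrn, Itga7, Itgb1, Ddr1, Gpc2 and Cspg4. None of these was called at any time or between 24 and 8 h, with or without the block (without it 0.676%, 0.856%, 0.766% and 0% of the array at 2, 4, 8 and 24 h). Their changes ran from -0.51 to 0.92 at 2 h, -0.56 to 1.40 at 4 h, -0.73 to 1.15 at 8 h and -0.64 to 1.31 at 24 h, with medians of 0.03, 0.07, 0.00 and 0.15. The number with an unadjusted p under 0.05 was 0 at 2 h (4.57% of the array), 1 at 4 h (7.75% of the array), 1 at 8 h (9.3% of the array) and 1 at 24 h (4.6% of the array).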

How the data were processed

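Total RNA of cultured rat Sertoli cells was measured on 10 arrays, 2 at each of 5 times. The deposited intensity values are linear, and how they were made is not given in the sources used here. The 2 h array without a number counts as replicate 1, since the other 2 h array carries the number 2. Each array was scaled to a shared 75th percentile of 108 (factors 0.909 to 1.13), values under that percentile divided by 8 were set to that floor, before log2 transformation. Control probe sets (59) were not analysed. Probe sets with a mean over all arrays of at least 32.0, the pooled median, were tested, 4439 of 8740. limma 3.58.1 in R 4.3.3 (lmFit, eBayes with trend) fitted 1 mean per time with 5 residual degrees of freedom. Arrays of 1 number deviated together from their group means at every pair of times (r = 0.110 to 0.698), so the replicate numbers were taken to pair the arrays, and a fit with the number as a block had 4 residual degrees of freedom. The scripts were tested on simulated data. The platform's probe table gave the symbols, and all 38 matrix genes matched RefSeq (GRCr8) by gene identifier. Values on every array are given for each called matrix probe set and, in each of 7 classes, for the tested one with the largest rise and fall, with a few others chosen after their values were seen. The matrix genes, the classes and the marker and other gene lists were chosen with earlier results of these data known. The alternatives were the deposited values without scaling, quantile normalization, other floors, no filter, and each array left out in turn. The number of arrays limits the precision.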

Additional observations from a re-analysis of the deposited data

Results flagged for a closer look

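Lox differed between FSH times when these were compared directly. On probe set S66184_s_at it was higher at 8 h than at 2 h by 2.20 on the log2 scale with the replicate block (limma adjusted p = 0.0233), and without the block the adjusted p was 0.0623. On rc_AI234060_s_at the difference was 2.42 with the block (limma adjusted p = 0.0409), and 0.106 was the adjusted p without it. Both 8 h arrays lay above both 2 h arrays on each of these probe sets. The 6 pairs of FSH times and 44 matrix probe sets made 264 such comparisons in each fit, and no other matrix probe set passed. The share of the whole array called between 8 and 2 h was not counted, so these Lox calls cannot be set beside it. With 2 arrays at each time, no check for an array far from the others of its time could be made.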

How the results depend on the processing

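Counts of called matrix probe sets changed with some settings. Without the brightness filter 1 was called at 2 h and 1 at 24 h, also with the replicate block, in each case the dim Fn1 probe set X05831cds_at, and 4 between the replicate numbers. The single call at 4 h and in the F test was then also of Fn1 and not of Lox, and at 8 h 1 call was of each gene. With a higher floor, a divisor of 4 in place of 8, the 4 h count was 0 with and without the block, the F test called 2, also with the block, and the block called 1 between 24 and 8 h. The F test also called 2 with the block and quantile normalization. At 8 h 1 was called with the values as deposited and 1 with a lower floor, a divisor of 16. Leaving out each array in turn gave 0 at 2 h (0 to 1 with the block), 0 to 1 at 4 h (0 to 4), 0 to 2 at 8 h (1 to 4), 0 at 24 h (0 to 2), 0 between 24 and 8 h (0 to 2), 0 to 1 for the F test (0 to 5) and 7 to 15 between replicate numbers. The F test called 0 without either control or either 8 h array, and the count between replicate numbers was 7 without a 4 h or 8 h array, and 8 without a 2 h array. Where an arm has 1 array left, it is assumed to vary like the other groups. Against 0 h and between 24 and 8 h, the replicate number as a block changed 1 call, that of Lox S77494_s_at at 8 h (2.55, limma adjusted p = 0.0481). Between 8 and 2 h it added the Lox calls given above.

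The block combined with another setting was chosen after seeing the data. The Lox changes named here were above 0 in all 31 alternatives, which were not run for 2 and 24 h. At 8 h S66184_s_at ranged from 2.55 to 4.04 and was called in 30 of 31 alternatives, rc_AI234060_s_at from 1.93 to 3.48 (16 of 31) and S77494_s_at from 1.52 to 3.58 (4 of 31), and at 4 h S66184_s_at ranged from 1.40 to 2.88 (18 of 31). Col3a1 X70369_s_at at 24 h was called in 1 alternative, the block with control replicate 2 left out (2.92, limma adjusted p = 0.0164), and Dcn X59859_i_at at 2 h in 1, the block with control replicate 1 left out (2.85, limma adjusted p = 0.00633). Some uncalled values changed sign with 1 array left out. These were P4ha1 at 8 h (-0.69 to 0.035, 0.035 without control replicate 1), Col4a5 at 8 h (-0.32 without that array to 1.40, and -0.31 to 1.39 with the block) and Col10a1 at 4 h (-0.68 without that array to 0.75, and -1.04 to 1.11 with the block). Col10a1 was also below 0 with quantile normalization (-0.042, with and without the block) and without 4 h replicate 1 (-0.26, and -0.15 with the block). The others were Ccn1 at 4 h (-1.63 to 0.043 without 4 h replicate 1), Col3a1 M21354_s_at at 2 h (-0.99 to 0.12 without 2 h replicate 1), Bgn at 2 h (-0.98 to 0.14 without 2 h replicate 2) and Sdc4 at 8 h (-1.51 to 0.25 without 8 h replicate 2). The cause of these changes was not tested. Dim probe sets near the floor are limited by signal over background.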
